A study of Triticum aestivum with 8 samples.

Results

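hsp16.9A is a small heat shock protein gene of wheat. It was chosen by its measured levels on these arrays, over line and treatment, and by the spread of the warm-grown arrays against the cold ones, so that its values below are a description and carry no test. In the array annotation 1 probe set, Ta.24332.1.S1_at, belongs to gene LOC543277, for which the RefSeq gene table gives hsp16.9A as the other name. This probe set is 1 of 61115 that were tested, and none of the others carries the same cluster number. The gene table places the gene on no chromosome.

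The study put RNA from crowns of winter wheat on 8 Affymetrix arrays, with 2 arrays in each of 4 groups. Both lines, SD16029 (freeze-resistant, FR) and SD16169 (freeze-susceptible, FS), descend from the cultivar Winoka by azide mutagenesis, and each is represented by 1 mutant line. The non-treated groups, FR NT and FS NT, came from greenhouse plants kept at 22–28°C under a 14 h photoperiod with 4 plants in a pot (the design text gives 25°C). The cold-acclimated groups, FR CA and FS CA, came from plants that were moved from that greenhouse to 4°C at the leaf stage of the NT harvest and kept there for 4 weeks. CA plants were therefore 4 weeks older at harvest, and they had stood in a cold room. The light there is not given in the sources used here. Age, growth place and temperature cannot be told apart. RNA of each group was taken from the pooled crowns of 3 replicates, and in the paper both arrays of a group are described as technical replicates. Whether each array had a pool of its own is not given in the sources used here, so that SDs and p-values measure only the spread between arrays, which may be technical.

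Small heat shock proteins are chaperones that need no ATP. They bind proteins that have begun to unfold and keep them from clumping until ATP-driven chaperones such as Hsp70 refold them. Plants hold many more of them than animals do, in several classes for the cytosol and the organelles, and the genes are known for strong induction by heat through heat shock factors and for expression in maturing seed. Wheat Hsp16.9 belongs to a cytosolic class and assembles into a barrel of stacked rings. The genes of this class are similar to each other and wheat carries related copies in its subgenomes, so that a probe set may read more than 1 of them.

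The deposited values are log2 signals after background correction and normalisation with gcRMA. The lowest value of the table, 2.15, was held by 31.9 to 32.6% of tested probe sets on any 1 array, and the array medians lay between 2.86 and 2.95. Arrays of 1 group correlated with r between 0.995 and 0.997 over the tested probe sets.

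hsp16.9A was among the brighter probe sets in NT crowns of both lines and dark in CA crowns of both lines. The log2 signal in FR NT was 11.30 on replicate 1 and 12.82 on replicate 2. In FS NT it was 12.94 on replicate 1 and 11.14 on replicate 2. On each of the 4 CA arrays it was 2.36. Every NT array thus lay above every CA array, which was also so for 17.7% of all tested probe sets. On the linear scale the NT arrays gave signals of 2517, 7248, 7878 and 2254 in the same order, and the CA arrays gave 5.15. The NT values stood at the 92.9, 97.2, 97.3 and 92.1 percentiles of their arrays, and the CA values at the 45.0 to 45.2 percentiles. In bulk tissue, fewer cells with the transcript and less transcript per cell cannot be told apart.

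**Figure D1:**
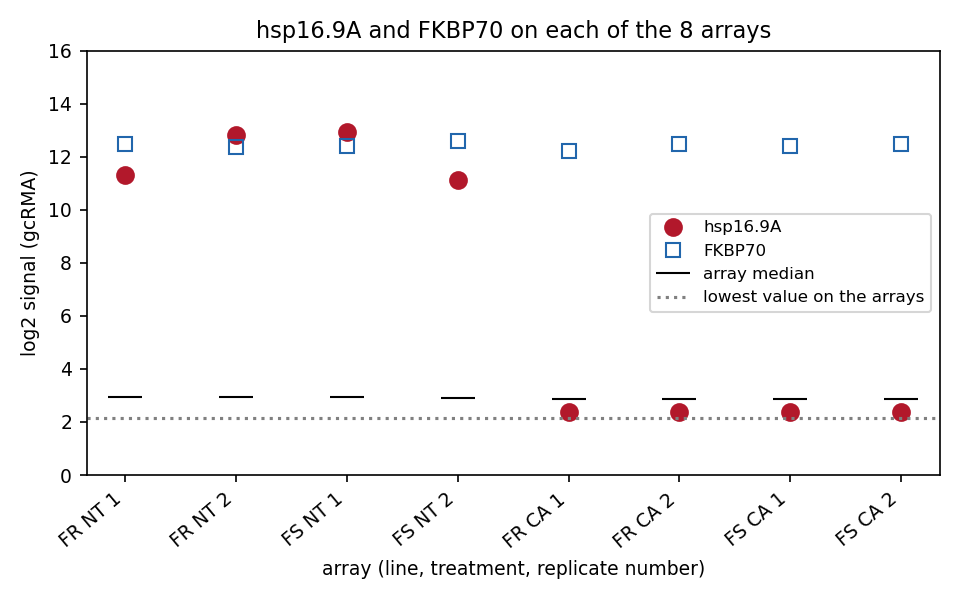
The log2 gcRMA signal of hsp16.9A (filled circles) and of FKBP70 (open squares) is plotted for each array, with the median of the tested probe sets on that array (short bars) and the lowest value of the table, 2.15 (dotted line). hsp16.9A lies between 11.14 and 12.94 on the NT arrays and at 2.36, under the array median, on all 4 CA arrays, while FKBP70 stays between 12.23 and 12.60 on all 8.

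Ordered by group mean, FR NT stood first at a log2 signal of 12.06 ± 1.08 (SD, n = 2), followed by FS NT at 12.04 ± 1.28 (SD, n = 2). Their means differed by 0.02 on the log2 scale, far less than the spread between the arrays of either group, and the groups overlapped. FR CA and FS CA followed at 2.36 with no spread. The order of the 4 groups thus rests on the distance between NT and CA, and the lines were next to each other within each treatment.

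As read, the mean log2 signal fell by 9.70 from NT to CA in FR and by 9.68 in FS. The CA signal lay under the median of its array on all 4 arrays, a range in which gcRMA separates signal from background poorly. With the CA values raised to the array medians, NT was at least 583-fold higher than CA in FR and at least 580-fold higher in FS. These bounds allow for dim values only and not for the spread of the NT arrays. From the lower NT array alone they were at least 343-fold in FR and at least 311-fold in FS. The choice of NT array moved these values. In FR the mean log2 signal fell by 8.93 without FR NT replicate 2 and fell by 10.46 without FR NT replicate 1. In FS it fell by 8.77 without FS NT replicate 1 and fell by 10.58 without FS NT replicate 2. Of all tested probe sets, 27 had a larger difference between the NT and CA means than hsp16.9A, and 2875 had a higher NT mean.

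The 4 CA values of hsp16.9A were identical to the last deposited digit. They lay 0.21 above the lowest value of the table, and no other probe set held this value on any array. Identical values over the CA arrays were common: 20297 tested probe sets (33.2%) had them, 16951 of these at the lowest value of the table and 3346 above it. They were rare at the NT level of hsp16.9A, since 7 of them had an NT mean above 10, hsp16.9A included. Of the 20297, 459 lay above the array medians. An SD of 0 was thus common among dim values of the deposited table and is no measure of the spread between CA crowns.

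A drop from a high NT signal to below the array median was shared by few probe sets. In all, 86 had a log2 signal above 8 on each NT array and below the array median on each CA array, and 12 of them carried a gene symbol. Of the 86, 11 had a higher NT mean than hsp16.9A and 1 had a larger SD over the NT arrays. The median NT SD of the other 85 was 0.26 on the log2 scale. Among the named ones were TUBA, an alpha-tubulin gene of the microtubules, with an NT mean of 8.97 and a CA mean of 2.20, and LOC778394, with 13.94 and 2.72.

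The spread of the NT arrays was the other value that the gene was chosen for. Over the 4 NT arrays the SD of the log2 signal was 0.97. FR NT replicate 2 stood 2.88-fold above FR NT replicate 1, and FS NT replicate 1 stood 3.49-fold above FS NT replicate 2. The high arrays of the lines were close to each other, 1.09-fold apart, as were the low ones, 1.12-fold apart. The 4 NT arrays therefore fell into a high and a low pair, each with 1 array of either line, and the high array carried replicate number 2 in FR and replicate number 1 in FS.

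This spread was wide for a probe set of that brightness. Of 1656 other probe sets with an NT mean within 0.5 of that of hsp16.9A, 3 had an SD as large or larger. Their median SD was 0.11 on the log2 scale and their 95th percentile 0.32. Only 1 of the 3, the unnamed Ta.23663.1.S1_s_at, had the same high and low arrays with a difference of at least 1 in both lines. Its NT log2 signals were 10.31, 12.94, 13.27 and 10.12 in the order FR 1, FR 2, FS 1 and FS 2. It differed from hsp16.9A in CA, where it kept a signal of 8.62 to 8.75. Another of the 3 also had these high and low arrays, at 12.12, 12.15, 13.76 and 11.41 in the same order. Its FR arrays were thus nearly level.

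**Figure D2:**
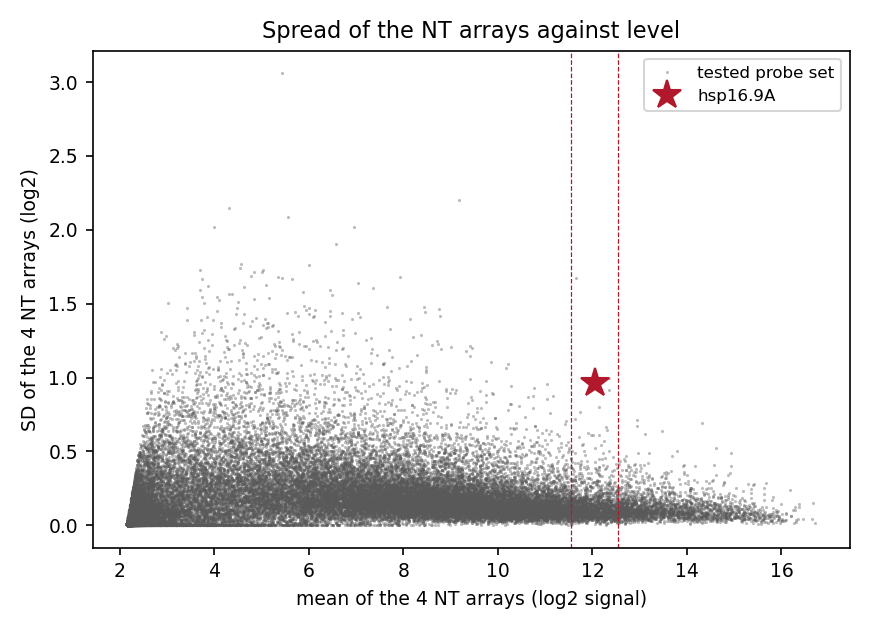
For every tested probe set (dots), the SD of the log2 signal over the 4 NT arrays is plotted against their mean. The star marks hsp16.9A at a mean of 12.05 and an SD of 0.97, and the dashed lines enclose the probe sets with a mean within 0.5 of it, of which 3 have an SD as large or larger.

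Other probe sets with the same split of the NT arrays were searched for over the whole table. The arrays of a line differed by at least 1 on the log2 scale in both lines for 656 probe sets. Replicate 1 was the higher array in both lines for 402 of them and replicate 2 for 20. The order of hsp16.9A, with replicate 2 higher in FR and replicate 1 higher in FS, was held by 157 including hsp16.9A, and the reverse by 77. Among the 7962 probe sets with an NT mean above 10 the counts were 18 in the order of hsp16.9A, 5 in the reverse order, 8 with replicate 1 higher in both lines and 0 with replicate 2 higher in both. In 20 others with its order, both differences were as large as those of hsp16.9A.

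**Figure D3:**
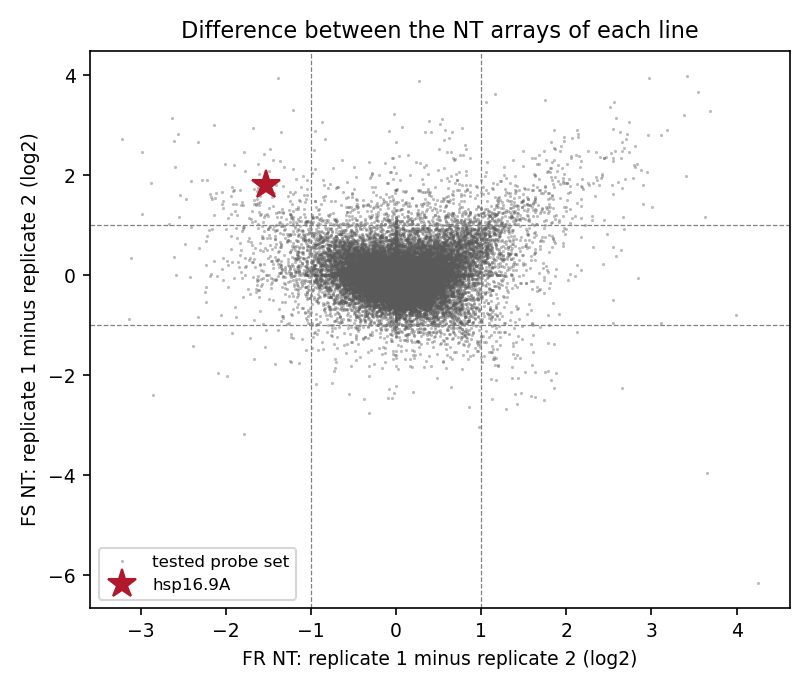
For every tested probe set (dots), the log2 difference between replicate 1 and replicate 2 in FR NT is plotted against the same difference in FS NT, with dashed lines at a difference of 1 either way. The star marks hsp16.9A at -1.53 and 1.81, in the upper left corner that holds 157 probe sets, while the upper right corner, with replicate 1 higher in both lines, holds 402.

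The probe sets that shared this split were mostly, but not all, lower in the cold. Of the 156 other probe sets with the order of hsp16.9A, 109 were higher on every NT array than on every CA array and 28 were lower on every NT array, against 17.7% and 20.0% of all tested probe sets. A difference of 1 between NT arrays needs a signal clear of the lowest value in NT, so that these shares are not comparable with those of all probe sets. Among the 156 were 8 with a gene symbol, from 7 genes. GAPN, which encodes the non-phosphorylating glyceraldehyde-3-phosphate dehydrogenase of the cytosol, had NT log2 signals of 8.34, 9.98, 9.84 and 8.31 and CA signals between 2.72 and 3.36. Its NT arrays formed the same high and low pairs as those of hsp16.9A, and its CA signal was near the array median.

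The other named ones showed both kinds of behaviour. LOC543477 had NT log2 signals of 9.16, 11.27, 11.01 and 9.37, and LOC543132 had 10.08, 11.53, 11.47 and 9.89. Both were lower in CA, at 2.90 to 3.28 and at 5.54 to 6.04. LOC542947 and both probe sets of LOC780599 were likewise lower in CA. LOC542946 ran the other way, with NT log2 signals of 2.76, 4.43, 4.32 and 2.82 and CA signals of 10.38 to 10.69. LOC543472 was also higher in CA, at 12.95 to 13.16 against 7.67 to 9.39 in NT. A gene can thus have shared the order of the NT arrays with hsp16.9A and moved against it between NT and CA.

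Several technical measures were set beside the NT split. The poly-A spike-in controls, RNAs added before labelling, had mean log2 signals of 8.69, 9.11, 8.72 and 8.99 on the NT arrays in the order FR 1, FR 2, FS 1 and FS 2, higher on replicate 2 in both lines. This is the order of hsp16.9A in FR and the reverse of it in FS. The difference between the 3′ and 5′ probe sets of the sucrose synthase control, a gauge of RNA length, was 5.24, 7.04, 5.54 and 7.04 on the log2 scale, and that of the glucose-6-phosphate dehydrogenase control was 1.88, 2.95, 1.88 and 2.66. Both followed the replicate number, which the signal of hsp16.9A did not. The array medians were 2.95, 2.93, 2.95 and 2.90. The part of these measures in the spread of hsp16.9A was not tested.

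Between treatments the spike-ins were 0.70 higher on the log2 scale in CA than in NT in each line. The mean of the hybridisation controls was also higher in CA, by 0.35 in FR and by 0.68 in FS. Set relative to the spike-ins, the log2 signal of hsp16.9A fell by 10.40 in FR and by 10.38 in FS. The source of the rise in these controls was not tested.

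Leaf and root genes were read as a check on the tissue, since crowns were cut free of leaf and root in the methods. Of 34 leaf marker probe sets, most of them for rbcL, the large subunit of Rubisco, 23 lay under the array median on all 8 arrays. Of the other 11, 7 were higher on every NT array than on every CA array and 0 were lower, against 17.7% and 20.0% of all tested probe sets. The 11 had passed the array median on at least 1 array, so that these shares are not directly comparable. The log2 of the summed linear signal of the 34 was 17.84 to 18.18 in NT and 17.43 to 17.57 in CA. Within NT it was 17.90, 17.97, 18.18 and 17.84, so that its high and low arrays in each line were those of hsp16.9A, at a far smaller distance. The brightest rbcL probe sets weigh most in this sum, with NT means of 16.36 and 16.66 and CA means of 16.19 and 16.39. Other leaf markers differed more between NT and CA. The means of PsbP were 14.05 in NT and 10.22 in CA on 1 probe set and 12.20 and 7.35 on another. Those of PsbO were 14.62 and 13.45, and those of RISP 14.09 and 13.34 on its bright probe set. PRK, which encodes the phosphoribulokinase of the Calvin cycle, had NT log2 signals of 11.53, 12.10, 12.34 and 11.63, the order of hsp16.9A, and CA signals between 4.74 and 6.30. In all, 5 of the 11 had that order, none with differences of 1 or more in both lines. The part of leaf tissue in the values of hsp16.9A was not tested. The single root marker, TaALMT1, a malate transporter, was under the array median throughout, at 2.16 to 2.45.

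The rest of the chaperone machinery could be followed in 1 gene only. A list of heat shock proteins, chaperonins, heat shock factors, immunophilins and protein disulfide isomerases matched 1 probe set besides hsp16.9A, that of FKBP70 (LOC543314, on chromosome 7B), because 59842 of the tested probe sets carry no gene symbol here. FKBP70 encodes a peptidyl-prolyl isomerase of the FK506-binding family, whose large plant members work with Hsp90. Its NT log2 signals were 12.47, 12.37, 12.42 and 12.60 in the order FR 1, FR 2, FS 1 and FS 2. Its CA signals were 12.23, 12.50, 12.42 and 12.50 in the same order. NT and CA overlapped, and the array order of hsp16.9A in NT was not shared, since FKBP70 was lower on FR NT replicate 2 and on FS NT replicate 1, by 0.09 and 0.19.

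In the limma fit over all 61115 probe sets, FKBP70 passed the threshold in none of the 5 comparisons. The log2 change from NT to CA was -0.058 ± 0.12 (SE) in FR, with a 95% interval from -0.37 to 0.25, and -0.049 ± 0.12 in FS, with an interval from -0.36 to 0.26. The Benjamini-Hochberg adjusted p was 1 in both. The intervals thus leave out changes of the size seen in hsp16.9A. Called in the same comparisons were 28.9% of all tested probe sets in FR and 30.1% in FS. FR minus FS was -0.090 ± 0.12 before and -0.099 ± 0.12 after cold acclimation. The change in FR minus that in FS was -0.0091 ± 0.17, and the limma adjusted p was 1 in each case. In these 3 comparisons 0.0213%, 0.373% and 0.108% of all tested probe sets were called, or 13, 228 and 66 probe sets. These counts hung on single arrays. Without any 1 of the NT arrays 859 to 1212 were called between the lines in NT, and without any 1 of the CA arrays 1686 to 2170 in CA, but FKBP70 was called in none of these fits. At an unadjusted p under 0.05, FKBP70 was called in 0 of the 5. Scaled to the spike-ins instead, it was called lower in CA in both lines, at -0.76 in FR (limma adjusted p = 0.0246) and -0.75 in FS (limma adjusted p = 0.0239), where the median of all tested probe sets also moved by -0.70.

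The pattern of hsp16.9A over the 8 arrays was close to that of many probe sets. Of 22078 that passed the array median on at least 1 array and spanned at least 1 on the log2 scale, 1256 (5.69%) had a Pearson r above 0.99 with it, and 1588 had an r below -0.99. These points share their arrays and a large step between NT and CA, which alone brings r close to its limits. The 10 named probe sets with the highest r, from 8 genes, had r between 0.998 and 1.00. Over the 4 NT arrays alone their r was 0.922 to 0.998, and each had its high and low NT array in each line where hsp16.9A had them. The 10 were chosen by r over all 8 arrays, which include these 4. Their likeness within NT was thus favoured by the choice and is no separate result.

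The 10 were alike in which NT array of each line was the higher, and not in size. The one with the highest r, LOC543085, had NT log2 signals of 6.32, 6.65, 6.71 and 6.28 and CA signals of 3.92 to 3.95. LOC606359 came closest to hsp16.9A in its fall, with an NT mean of 10.52 and a CA mean of 2.17 on its x_at probe set. Its NT arrays read 10.15, 10.72, 11.11 and 10.09. LOC543147, with an NT mean of 9.65 and a CA mean of 2.46, was the other one that ended under the array median. BMY1 (LOC543318), the only one of the 10 with a further gene name, encodes a beta-amylase, which releases maltose from starch. It had NT log2 signals of 7.97, 8.62, 8.58 and 8.18 and CA signals of 3.54 to 3.90. The falls of the 10 ranged from 1.83 to 8.35, all smaller than that of hsp16.9A. The other probe sets were those of LOC543404, LOC543072 with 2 probe sets, LOC606363, LOC543002 and the at probe set of LOC606359. By Spearman's rho in place of Pearson's r, 3 of the 10 stayed in the list.

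**Figure D4:**
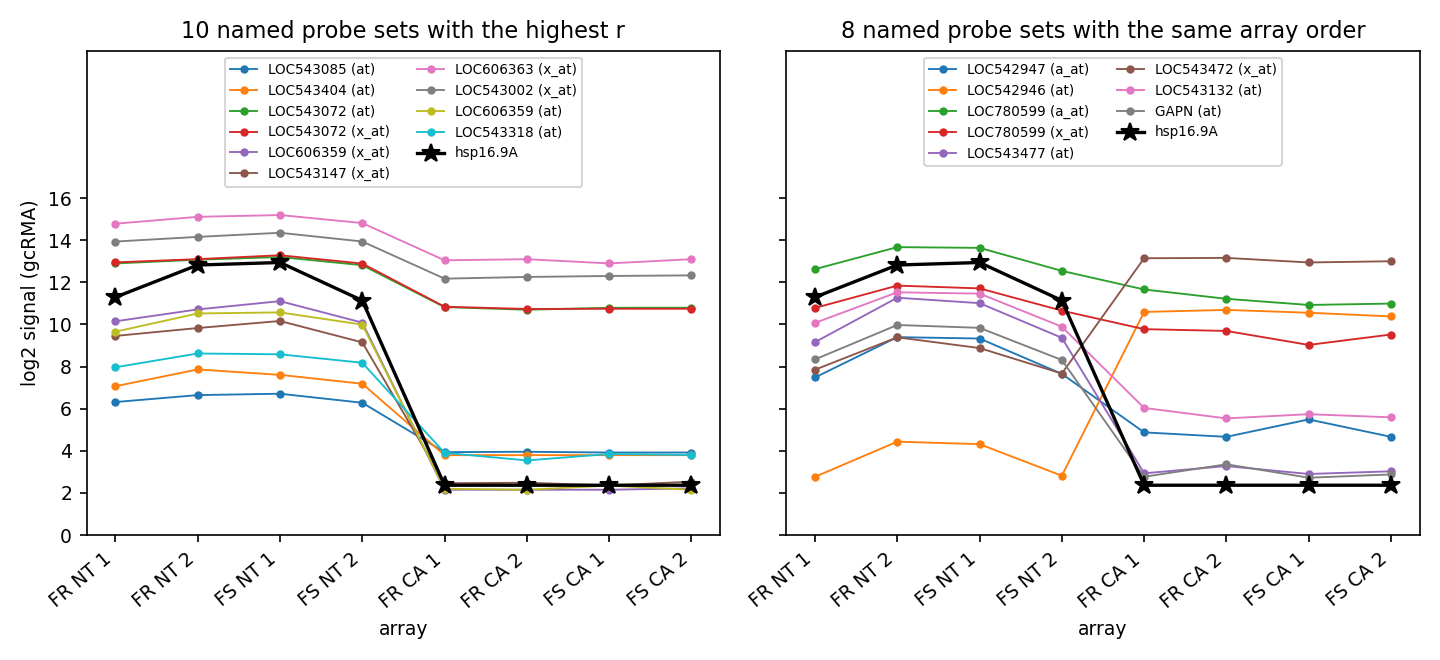
The log2 gcRMA signal on each of the 8 arrays is shown for hsp16.9A (black stars) with the 10 named probe sets of highest Pearson r (left) and with the 8 named probe sets that share the order of its NT arrays by at least 1 on the log2 scale in both lines (right). On the left all fall from NT to CA, by 1.83 to 8.35, while on the right LOC542946 and LOC543472 are higher in CA.

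Falls of like size were also found in histone probe sets with less spread between the NT arrays. The H2A and H2B histone genes, whose proteins package newly copied DNA, had 17 of 18 probe sets with an NT mean above 8 and every NT array above every CA array. Their log2 falls ranged from 5.03 to 10.43, which takes in that of hsp16.9A. Their largest SD over the NT arrays was 0.49, against 0.97 for hsp16.9A, and their arrays differed by at most 0.81 in FR NT and 0.67 in FS NT. The tubulins, the subunits of microtubules, had 9 of 10 such probe sets, with smaller falls of 0.17 to 6.77 and a largest NT SD of 0.17. Over all tested probe sets, at any NT mean, 17.7% had every NT array above every CA array. The share among those with an NT mean above 8 was not counted. The histone and tubulin families were picked after their values were seen, as named groups with falls from NT to CA, and carry no test.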

How the data were processed

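RNA of crowns was hybridised by the authors to 8 Affymetrix wheat arrays, 1 table for the series. The deposited table holds a log2 signal for each probe set, made by the authors with gcRMA, a background correction followed by normalisation (GCRMA and RMA stand in the submitters' processing notes). No raw intensities were used here, versions are not given in the sources used here, and the number of arrays limits the precision. Of 61290 probe sets, 175 controls were left out of the tests. Gene names came from the platform annotation (1273 probe sets with 1 symbol) and other names from a RefSeq gene table.

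The gene, the lists and the tests were chosen with earlier results of these data known. Named were hsp16.9A, the heat shock and chaperone list, and the 10 named probe sets with the highest Pearson r with hsp16.9A. Families, probe sets with the same array order and the GAPN, TUBA and LOC genes outside that rule were chosen after their values were seen. The list was fitted with limma 3.58.1 in R 4.3.3 (a mean for each group, 8 arrays, a trend of variance with intensity, residual degrees of freedom 4, prior 0.623), with Benjamini-Hochberg adjustment over 61115 probe sets and calls at an adjusted p under 0.05. The fit was also run on simulated data with independent normal noise, no lowest value and no effect of the replicate number. The deposited values differ in these respects, so that this run checks the code and not the calls made here. Alternatives were other variance models, array scales, floors, filters, a replicate block and leaving out each array. Figures were drawn with matplotlib 3.10.9.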

Additional observations from a re-analysis of the deposited data

How the results depend on the processing

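hsp16.9A kept its direction in both lines under every scale, floor and left-out array tried. The gene was chosen for its levels, and its fall far exceeds the changes made here. Its direction could thus not have turned, and this is no separate support. Leaving out a CA array moved nothing, since the CA values are identical. With an array left out, its log2 change from NT to CA was -10.46 to -8.93 for FR, -10.58 to -8.77 for FS, and its NT SD was 0.92 to 1.01. Arrays centred on their medians gave -9.63 in FR and -9.61 in FS, and CA raised to the array medians gave -9.19 and -9.18.

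FKBP70 changed sign in places, never with a call. Centred arrays gave a log2 change of 0.0084 in FR and 0.021 in FS. With an array left out, its change was -0.20 to 0.080 for FR and -0.14 to 0.045 for FS, its line difference was -0.18 to 0.0035 for NT and -0.24 to 0.039 for CA, and the change in FR minus that in FS was -0.15 to 0.13. Relative to the spike-ins, 1 of the 1 list members was called in FR and 1 in FS, against 0 otherwise. By Spearman's rho, 3 of the 10 most alike probe sets were shared with the list by Pearson's r, and 10 without the filter on range.

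With the replicate number in the fit (replicate block), the log2 change of FKBP70 was -0.058 in FR and -0.049 in FS (limma adjusted p = 1), and the block changed no call of it. Differences between replicates 1 and 2 correlated between groups with r of 0.13 to 0.45 in 6 of 6 pairs of groups. The 3′ minus 5′ control differences also followed the number. Arrays of 1 number thus had differences in common, and the source of these was not tested. The labels name no shared batch and there are only 2 numbers, so they were not used as pairs. Over all probe sets the block called 17527 in FR, 18252 in FS, 9 between the lines in NT, 35 in CA and 22 for the response, against 17687, 18419, 13, 228 and 66.

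The background share of calls moved with the scale. Centred arrays called 41893 probe sets in FR, 78.2% of them higher in CA, and 43048 in FS, 78.7% higher. Scaling to the spike-ins called 46129 and 46613, with 11.2% and 12.2% higher. The deposited scale called 17687 and 18419, with 52.9% and 54.3% higher. Values raised to the array median gave 48380 and 48997, with 22.3% and 23.1% higher. Line comparisons moved further. Over the variance models, scales, floor and filter they gave 0 to 10 calls in NT, 35 to 428 in CA and 15 to 192 for the response. Without any 1 NT array there were 859 to 1212 in NT, 32 to 48 in CA and 888 to 1221 for the response, and without any 1 CA array 14, 1686 to 2170 and 1466 to 1862. These fits take the spread of a lone array from the other groups. Signals under the array median limit what can be said of the CA level.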
